A study of Mus musculus with 8 samples.

Results

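The carboxylesterases are a family of ester-splitting enzymes that mouse liver makes in large amounts, and 10 of their genes are described here: Ces1b, Ces1c, Ces1d, Ces1e, Ces1f, Ces1g, Ces2a, Ces2e, Ces3a and Ces3b. Each was taken as the probe set annotated to its symbol. All 10 genes had 1 probe set with 1 symbol, out of 19938 genes tested, and 0 of these probe sets carried several symbols. The genes were selected on earlier log2 fold changes of this same comparison, in which Ces3b, Ces1f and Ces1e were among the lowest of all genes. The comparison of the groups below is therefore a description of the members and carries no test of them.

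Carboxylesterases sit mainly in the lumen of the endoplasmic reticulum of hepatocytes and in plasma, and they cleave esters of drugs, of environmental compounds and of lipids. Enzymes of the Ces1 group tend to prefer substrates with a large acyl and a small alcohol part, and those of the Ces2 group the reverse. Several Ces1 enzymes also release fatty acids from stored triglyceride, which the liver re-uses to build very-low-density lipoprotein. In the mouse the family was expanded by tandem duplication, so that the genes lie side by side on chromosome 8.

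The livers came from 4 transgenic mice and 4 control mice. The transgenic mice express constitutively active IKK2, the kinase that switches on the transcription factor NF-kB, from the LAP promoter, which is active in hepatocytes. The control mice are labelled wild type. Both groups were 4 weeks old and shared a mixed C57BL/6 and NMRI background with at least 4 backcrosses to C57BL/6. Each liver was measured on its own array, as log2 expression values whose array medians lay between 4.88 and 5.08. With few arrays the precision is limited, and each array counts as a biological replicate per the labels. Readings of Ikbkb, the gene of IKK2, were 8.995, 9.09, 8.38 and 8.38 in the transgenic livers and 7.79, 7.44, 7.85 and 7.77 in the control livers, each given here and below in the order of replicates 1 to 4. Its log2 fold change was 1.00 (SE 0.18; limma adjusted p = 0.0185), and no transgenic array overlapped a control. This call was lost without transgenic replicate 1 and without each of the controls.

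The promoters of the family show how closely some of these duplicated genes resemble each other. RefSeq (GRCm38.p6) promoter windows were at hand for 7 of the 10 members. Ces1b had a further window from another start, chr8:93080018-93080267, which overlaps the window shown and was not aligned. Ces1b and Ces1c are shown because their upstream sequences are the most alike, Ces3b and Ces1e because their readings were among the furthest below control, and Ces2e because its group means were nearly equal. Each line gives the 250 bases before the start of transcription on the gene's own strand, 5′ to 3′. Capitals mark every match to 1 of 5 motifs, searched on both strands: TTGCNNAA (C/EBP), CAAAGNNCA (HNF4), GTTAATNAT (HNF1), TATAAA (a core promoter element) and GGNNNTTCC (a loose form of an NF-kB site). No matches overlap in the windows shown.
Ces1b (chr8:93079941-93080190, minus strand): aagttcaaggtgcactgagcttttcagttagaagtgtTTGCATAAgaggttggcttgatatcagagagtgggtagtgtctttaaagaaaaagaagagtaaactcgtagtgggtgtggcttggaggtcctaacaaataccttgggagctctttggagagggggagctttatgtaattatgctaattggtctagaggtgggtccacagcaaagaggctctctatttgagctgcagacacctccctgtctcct
Ces1c (chr8:93131284-93131533, minus strand): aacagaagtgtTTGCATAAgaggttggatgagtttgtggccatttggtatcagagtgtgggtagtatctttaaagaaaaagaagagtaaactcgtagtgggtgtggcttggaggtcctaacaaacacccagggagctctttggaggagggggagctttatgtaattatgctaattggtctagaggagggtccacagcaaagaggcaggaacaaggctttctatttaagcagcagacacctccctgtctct
Ces1e (chr8:93229620-93229869, minus strand): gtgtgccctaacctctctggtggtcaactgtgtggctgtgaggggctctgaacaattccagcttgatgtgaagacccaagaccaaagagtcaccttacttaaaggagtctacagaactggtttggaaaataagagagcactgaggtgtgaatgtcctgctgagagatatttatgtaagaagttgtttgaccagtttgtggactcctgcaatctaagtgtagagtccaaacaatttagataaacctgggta
Ces3b (chr8:105083505-105083754, plus strand): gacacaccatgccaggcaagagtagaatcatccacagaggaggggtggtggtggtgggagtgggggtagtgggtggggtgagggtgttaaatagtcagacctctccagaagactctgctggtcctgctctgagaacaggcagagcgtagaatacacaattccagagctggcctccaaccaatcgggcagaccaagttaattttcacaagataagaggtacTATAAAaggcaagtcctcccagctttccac
Ces2e (chr8:104926010-104926259, plus strand): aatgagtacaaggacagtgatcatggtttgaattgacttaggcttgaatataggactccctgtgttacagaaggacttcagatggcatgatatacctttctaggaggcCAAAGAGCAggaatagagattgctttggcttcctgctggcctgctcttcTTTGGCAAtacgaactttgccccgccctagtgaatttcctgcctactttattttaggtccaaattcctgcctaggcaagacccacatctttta

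In a global alignment the Ces1b and Ces1c windows were identical in 76.2% of 277 columns. All other pairs of the 7 windows lay between 42.0% and 53.7%, with Ces1b and Ces1g at 53.7% and Ces2a and Ces2e at 53.2%. Both Ces1b and Ces1c carry TTGCATAA, a match to the C/EBP letters, which 9.56% of all 32851 windows hold. Ces2a and Ces2e hold other matches to the same letters. Ces3b holds TATAAA starting 30 bases before its start, and Ces1g holds them on the opposite strand; 12.4% of all windows hold these letters. The HNF4 letters, found in 5.49% of all windows, occur in Ces2e and in none of the other member windows. The HNF1 letters (0.737% of all windows) and the NF-kB letters (15.7%) occur in none of the 7 member windows, which bears only on these letters and this stretch. The Ces1e window holds none of the 5 motifs. A match describes letters only and shows no binding.

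Across the family, 9 of the 10 members had a negative log2 fold change, against 61.6% of all genes tested. The median log2 fold change was -1.005 for the members and -0.07 for all genes tested. In 5 of the 10 members every transgenic array lay below every control array, as it did in 11.2% of all genes. At a limma adjusted p under 0.05, 3 members were called lower (Ces3b, Ces1f and Ces1e) and 0 higher, beside 1.67% and 4.67% of all genes. At an unadjusted p under 0.05, limma had 7 members lower and 0 higher, beside 18.3% and 15.3% of all genes. Over all genes 932 were called higher and 333 lower, 1066 and 638 after quantile normalization, and 618 and 97 after centring the arrays on their medians. Since the members were proposed from this contrast, nothing is read from these shares. The 3 calls depended on the arrays kept, as did calls over all genes. None held without transgenic replicate 1, control replicate 1 or control replicate 4, where 3, 13 and 32 of all genes were called lower. Ces3b alone held without control replicates 2 or 3, where 10 and 35 of all genes were called lower. Without transgenic replicate 3, 5 members were called, beside 674 lower calls over all genes. In whole liver, fewer hepatocytes and less RNA in each hepatocyte cannot be told apart.

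**Figure D1:**
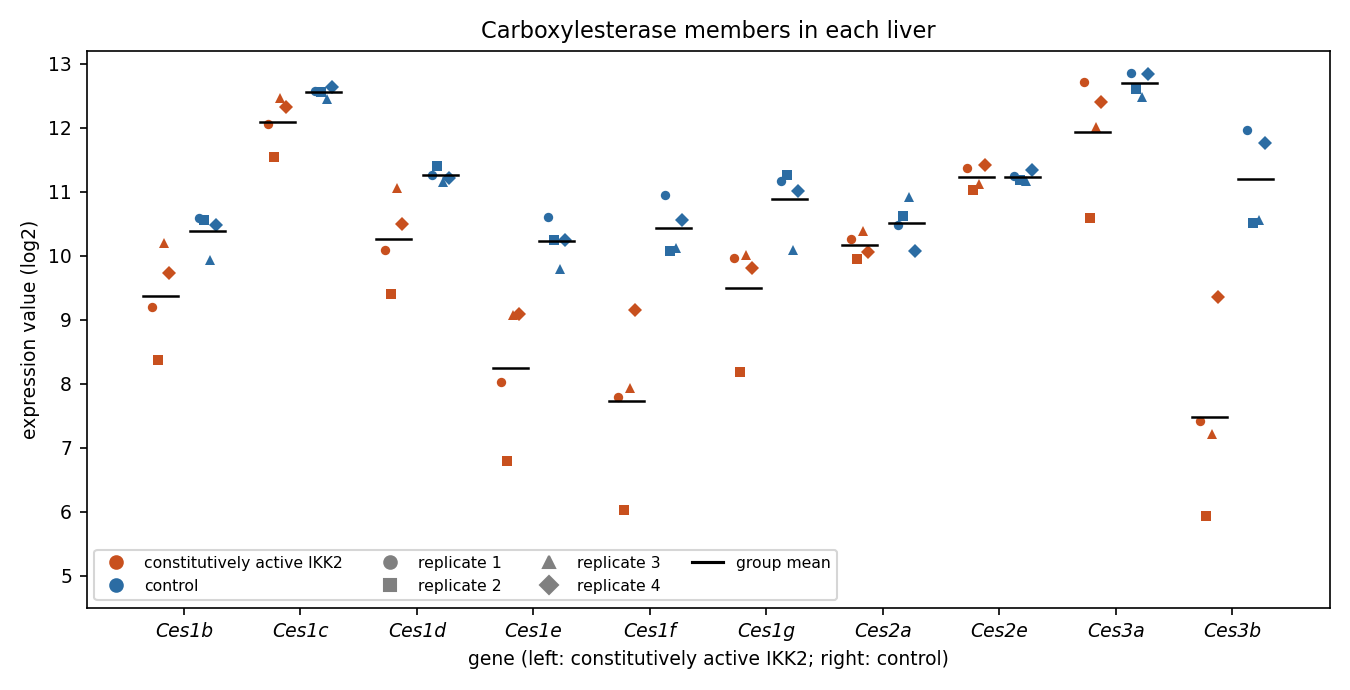
Log2 expression value (vertical axis) of the 10 members in each liver, with the 4 transgenic arrays left of the 4 control arrays of each gene, symbols for replicates and bars for group means. The groups are far apart for Ces3b, Ces1f and Ces1e, while those of Ces2e overlap, and transgenic replicate 2 is the lowest transgenic array for all 10 genes.

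The largest difference was that of Ces3b, a member of the Ces3 pair. Readings of Ces3b (probe set 10574607) were 7.42, 5.93, 7.21 and 9.35 in the livers of transgenic mice 1 to 4 and 11.97, 10.51, 10.56 and 11.77 in those of control mice 1 to 4. The groups did not overlap, and the transgenic livers themselves spread over 3.43 log2 units, with replicate 4 closest to the controls. The log2 fold change was -3.72 (SE 0.64), so that the transgenic mean of log2 values corresponded to 7.59% of the control mean, and only 1 of the 19938 genes had a lower fold change.

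Its neighbour Ces3a differed much less. Ces3a (probe set 10574598) read 12.70, 10.59, 12.00 and 12.41 in the transgenic livers, against 12.86, 12.60, 12.48 and 12.84 in the controls. Transgenic replicate 1 lay within the control range and replicate 2 stood far below the rest, and the log2 fold change of -0.77 (SE 0.38) was -0.32 without that liver. Within each array, the Ces3b difference from its control mean minus that of Ces3a ran from -3.79 to -1.55 on the log2 scale in the transgenic livers, and from -0.59 to 0.60 in the controls. The log2 fold changes of these paralogs thus differed by -2.95. Ces3a reads high on arrays whose highest reading was 14.13, and whether its differences are compressed there was not tested.

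Among the Ces1 enzymes linked to triglyceride, Ces1f was the furthest below control. Ces1f, also called TGH-2 in the RefSeq gene table after its activity on triacylglycerol, read 7.79, 6.02, 7.94 and 9.15 in the transgenic livers, against 10.94, 10.08, 10.12 and 10.56 in the controls. No transgenic reading reached the controls, and replicate 4 was again the closest. Its log2 fold change was -2.70 (SE 0.53), with 15.4% of the control level. Ces1d, the triacylglycerol hydrolase TGH that mobilises stored fat for lipoprotein assembly, read 10.08, 9.40, 11.06 and 10.50 in the transgenic livers, against 11.25, 11.40, 11.14 and 11.21 in the controls. Here the groups were separate by a narrow margin, since transgenic replicate 3 was just under the lowest control. The log2 fold change of Ces1d was -0.99 (SE 0.28), or 50.3% of the control level, and did not pass the threshold.

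Ces1g is a lipid hydrolase whose loss in mice is known to raise blood lipids and to cause fatty liver. It read 9.97, 8.18, 10.005 and 9.81 in the transgenic livers, against 11.16, 11.26, 10.08 and 11.02 in the controls. The groups touched at transgenic replicate 3 and control replicate 3, which stood apart from the other controls, without overlapping. A log2 fold change of -1.39 (SE 0.41), or 38.3% of the control level, did not pass the threshold. The log2 fold change of Ces1f differed from that of Ces1d by -1.71 and from that of Ces1g by -1.31. Array by array, the Ces1f difference from its control mean minus that of Ces1d ran from -2.55 to -0.52 in the transgenic livers and from -0.49 to 0.52 in the controls, so the groups almost touched. Minus that of Ces1g, it ran from -1.72 to -0.21 in the transgenic livers and from -0.72 to 0.49 in the controls, and the groups overlapped.

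Ces1e, known as egasyn, holds beta-glucuronidase in the endoplasmic reticulum. Its readings were 8.02, 6.80, 9.07 and 9.09 in the transgenic livers and 10.61, 10.24, 9.80 and 10.25 in the controls. All transgenic livers were below all controls, with replicate 2 the lowest, and the log2 fold change was -1.98 (SE 0.45), or 25.4% of the control level. The gene of its partner moved the other way: Gusb, which encodes beta-glucuronidase, read 8.09, 8.49, 7.89 and 7.82 in the transgenic livers, against 7.49, 7.17, 7.54 and 7.19 in the controls. Gusb rose by 0.72 on the log2 scale (SE 0.16; limma adjusted p = 0.0342, from 0.0196 to 0.104 over the alternatives tried). Like the calls of Nr0b2 and Plin5 below, it was lost without transgenic replicate 1, without each of the controls and when all deposited probe sets were tested. Centring the arrays ended the calls of Nr0b2 and Plin5 too, and leaving out transgenic replicate 2 that of Plin5.

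Ces1c is the carboxylesterase of mouse plasma, secreted by the liver. Ces1c read 12.05, 11.54, 12.46 and 12.32 in the transgenic livers, against 12.58, 12.55, 12.45 and 12.64 in the controls. Transgenic replicate 3 lay just inside the control range, and the log2 fold change was -0.46 (SE 0.18), or 72.6% of the control level, and -0.28 without transgenic replicate 2. Ces1b, whose substrates are less well described, read 9.19, 8.37, 10.19 and 9.72 in the transgenic livers and 10.59, 10.55, 9.93 and 10.48 in the controls. Its groups overlapped through transgenic replicate 3 and control replicate 3, and its log2 fold change was -1.02 (SE 0.34). Neither gene passed the threshold. The pair with the most similar upstream sequence, Ces1b and Ces1c, thus had log2 fold changes of -1.02 and -0.46. Ces1c also reads high, and whether its differences are compressed was not tested.

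The Ces2 members differed least. Ces2a read 10.26, 9.95, 10.38 and 10.06 in the transgenic livers and 10.48, 10.61, 10.91 and 10.07 in the controls, with a log2 fold change of -0.35 (SE 0.17). The groups overlapped, control replicate 4 being as low as the transgenic livers. Ces2e read 11.37, 11.02, 11.13 and 11.42 in the transgenic livers, against 11.24, 11.18, 11.17 and 11.33 in the controls. The log2 fold change of Ces2e was 0.01 (SE 0.11), with transgenic readings on both sides of the controls. Its sign was negative after quantile normalization and without transgenic replicate 1 or 4 or control replicate 2 or 3.

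**Figure D2:**
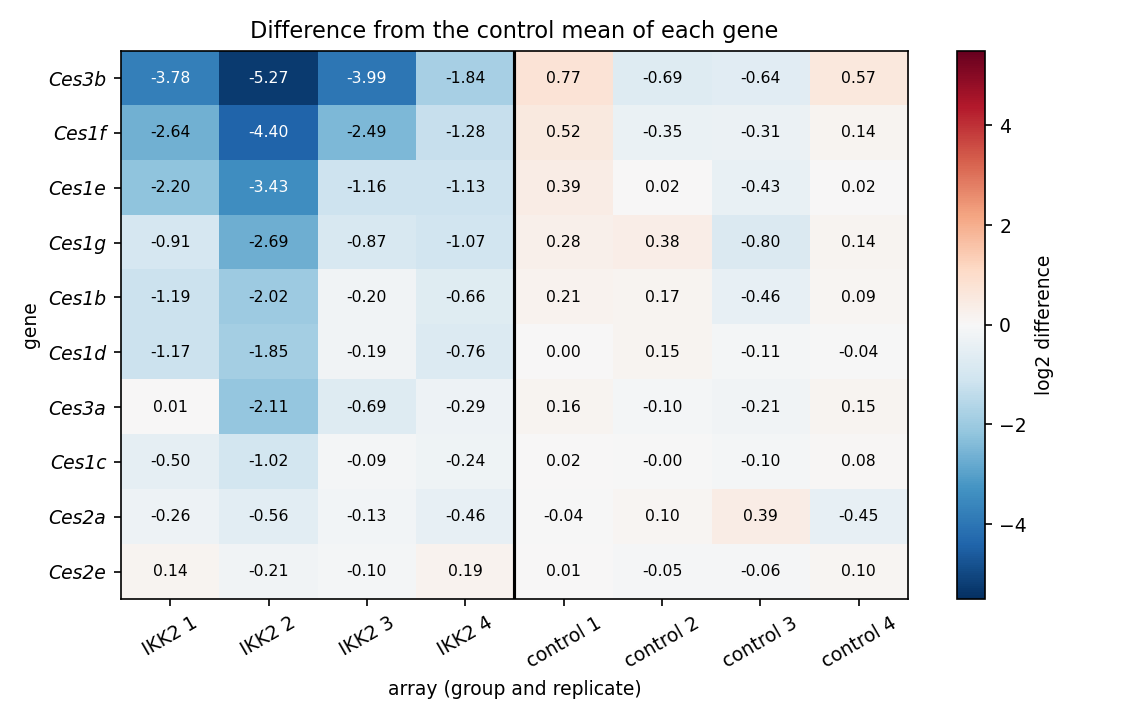
Log2 difference of each reading from the control mean of the same gene, for the 10 members (rows, ordered by log2 fold change) in the 4 transgenic arrays (left) and the 4 control arrays (right). Blue cells are below the control mean; the column of transgenic replicate 2 is the bluest, reaching -5.27 for Ces3b.

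The members had the same lowest transgenic liver, as had most genes at least 2-fold lower. The lowest transgenic array was replicate 2 for all 10 members, which was so for 38.6% of all genes. It was also so for 82.4% of the 85 genes at least 2-fold lower, a set that includes 5 of the members. Averaged over the members, the log2 difference from the control mean was -1.25 in transgenic replicate 1, -2.36 in replicate 2, -0.99 in replicate 3 and -0.75 in replicate 4, against 0.23, -0.04, -0.27 and 0.08 in the controls. Replicate 2 lay lowest and replicates 3 and 4 closest to the controls, yet all transgenic means were below all control means. The replicates were not ranked in the same way for each gene: Ces3b, Ces1f, Ces1e and Ces2e were highest in replicate 4, Ces1b, Ces1c, Ces1d, Ces1g and Ces2a in replicate 3, and Ces3a in replicate 1. In 9 of the 10 members the transgenic readings spanned a wider range than the controls, as they did in 59.3% of all genes.

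Transgenic replicate 2 also stood apart in markers of other cells. Of 11 Kupffer cell markers, 8 were called higher and 0 lower, beside 4.67% and 1.67% of all genes. The mean levels of these markers were 9.18, 10.15, 9.19 and 8.77 in the transgenic livers, against 7.79 to 8.18 in the controls. The 8 calls were 5 without transgenic replicate 1 or control replicate 4, and 4 without control replicates 2 or 3. Higher calls over all genes numbered 199, 268, 192 and 203 in these settings, against 932 with all arrays. For monocyte markers, 6 of 8 were called higher and 0 lower, and their mean levels were 7.90, 8.57, 7.25 and 7.53 in the transgenic livers, against 5.73 to 5.84 in the controls. The mean level of T and NK cell markers, of which 2 of 8 were called higher (Cd3g and Nkg7, picked here after their values were seen; the call of Nkg7 did not hold without control replicate 2, 3 or 4), was 4.86 to 5.70 in transgenic and 4.39 to 4.54 in control livers. Without transgenic replicate 2 the median log2 fold change of the members was -0.70, and 4 were called lower (Ces3b, Ces1f, Ces1e and Ces1g). Lower calls over all genes then numbered 260. The part of other cells in the members' differences was not tested.

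Beside the members, which were selected on their fold changes, general markers of hepatocytes had a smaller median difference. Of 12 measured, limma called 0 lower (3 at an unadjusted p under 0.05) and 1 higher, the heme carrier Hpx, chosen after its value was seen, with a log2 fold change of 0.57, a call that did not hold without transgenic replicate 1. Their median log2 fold change was -0.14. Over all genes limma called 1.67% lower and 4.67% higher, and at an unadjusted p under 0.05 these shares were 18.3% and 15.3%. The mean level of the hepatocyte list was 12.19 to 12.44 in transgenic and 12.39 to 12.45 in control livers, with transgenic replicates 2 and 1 lowest at 12.19 and 12.27. These levels are high on arrays whose highest reading was 14.13, and whether differences are compressed there was not tested. For the zones of the liver lobule, 1 of 9 pericentral markers was called higher and 0 lower, with a median log2 fold change of -0.19, 6 of the 9 negative, and 1 higher and 2 lower at an unadjusted p under 0.05. Of 6 periportal markers, 1 was called lower and 0 higher, with a median of -0.42 and 3 lower and 0 higher at an unadjusted p under 0.05. The ammonium transporter Rhbg at 0.64 and the histidine-degrading enzyme Hal at -1.05, both picked with their values in view, were the called markers. Neither call held without transgenic replicate 1 or control replicates 1, 2 or 4, that of Rhbg also not after quantile normalization, and that of Hal not without control replicate 3 or with centred arrays. Testing all deposited probe sets ended both. Leaving out transgenic replicate 4 gave 1 lower call among hepatocyte, 1 among pericentral and 3 among periportal markers, and 1 higher among endothelial ones. In that setting 944 genes were called lower over all genes. Without transgenic replicate 3, 2 periportal markers were called lower. Neutrophil, B cell, endothelial, bile duct and erythroid markers had 0 calls by limma, of 9, 5, 7, 5 and 2 measured, with 2, 0, 2, 1 and 0 at an unadjusted p under 0.05, and 3 of 9 stellate cell markers were called higher (Lum, Dcn and Col1a1, named after their values were seen, at 1.36, 0.55 and 0.71).

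**Figure D3:**
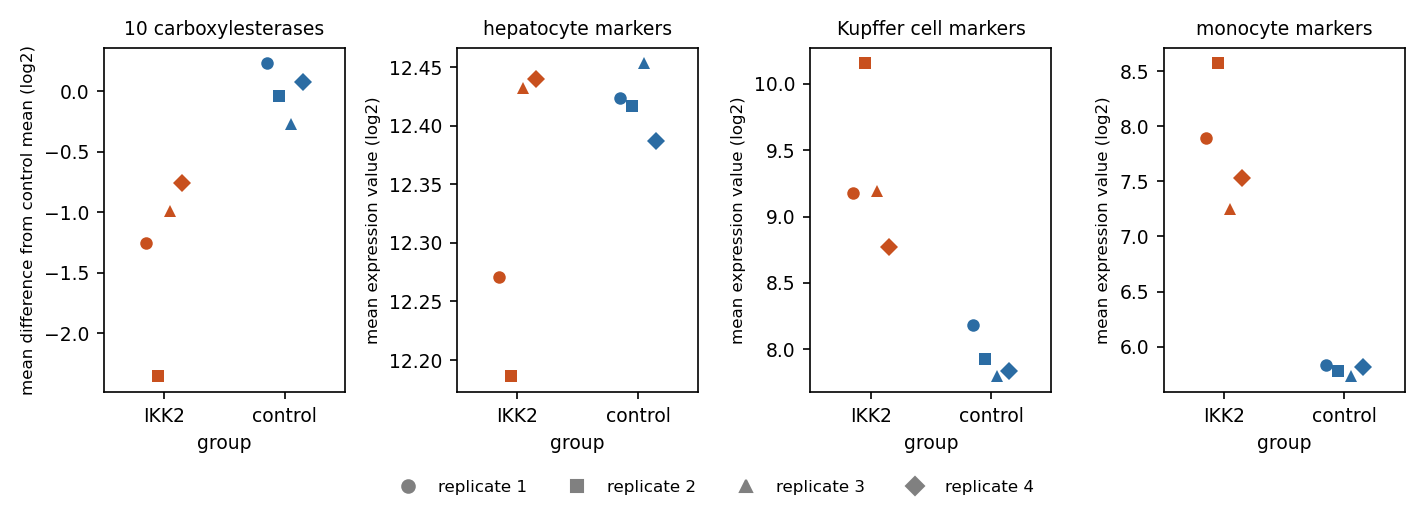
Mean over the 10 members of the log2 difference from the control mean, and mean log2 level of the hepatocyte, Kupffer cell and monocyte marker lists, for the 4 transgenic and the 4 control livers. Each symbol is 1 liver; transgenic replicate 2 (square) has the lowest carboxylesterase mean, -2.36, and the highest Kupffer cell mean, 10.15.

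Along chromosome 8 the lowest fold change of each cluster belonged to a gene in its later part. In the Ces1 cluster the log2 fold changes ran -1.02, -0.46, -0.99, -1.98, -2.70 and -1.39 from Ces1b to Ces1g. The genes at its ends, Ces1a and Ces5a, stood at -0.25 and -0.18, with mean readings of 4.64 and 4.97 in transgenic and 4.89 and 5.16 in control livers. These readings are close to the array medians, so that the size of their differences is uncertain. In the other cluster, Ces2a, Ces2e, Ces3a and Ces3b stood at -0.35, 0.01, -0.77 and -3.72. Of 12 measured genes flanking the clusters, 3 on each side, 11 were not called, with log2 fold changes from -0.30 to 0.77. The exception was Lpcat2, an enzyme of membrane phospholipid remodelling, which rose by 1.71 (SE 0.24, limma adjusted p = 0.00759). Lpcat2 is the furthest from the Ces1 cluster of the 3 measured genes before it. The nearer Capns2 and Slc6a2 stood at -0.07 and -0.19. Highest among the uncalled genes was Cbfb, which follows Ces4a, at 0.77 (SE 0.21). Its groups did not overlap, and its limma adjusted p was 0.0575, from 0.0292 to 0.143 over the alternatives tried. Cbfb was called under 5 of the 16 alternatives.

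**Figure D4:**
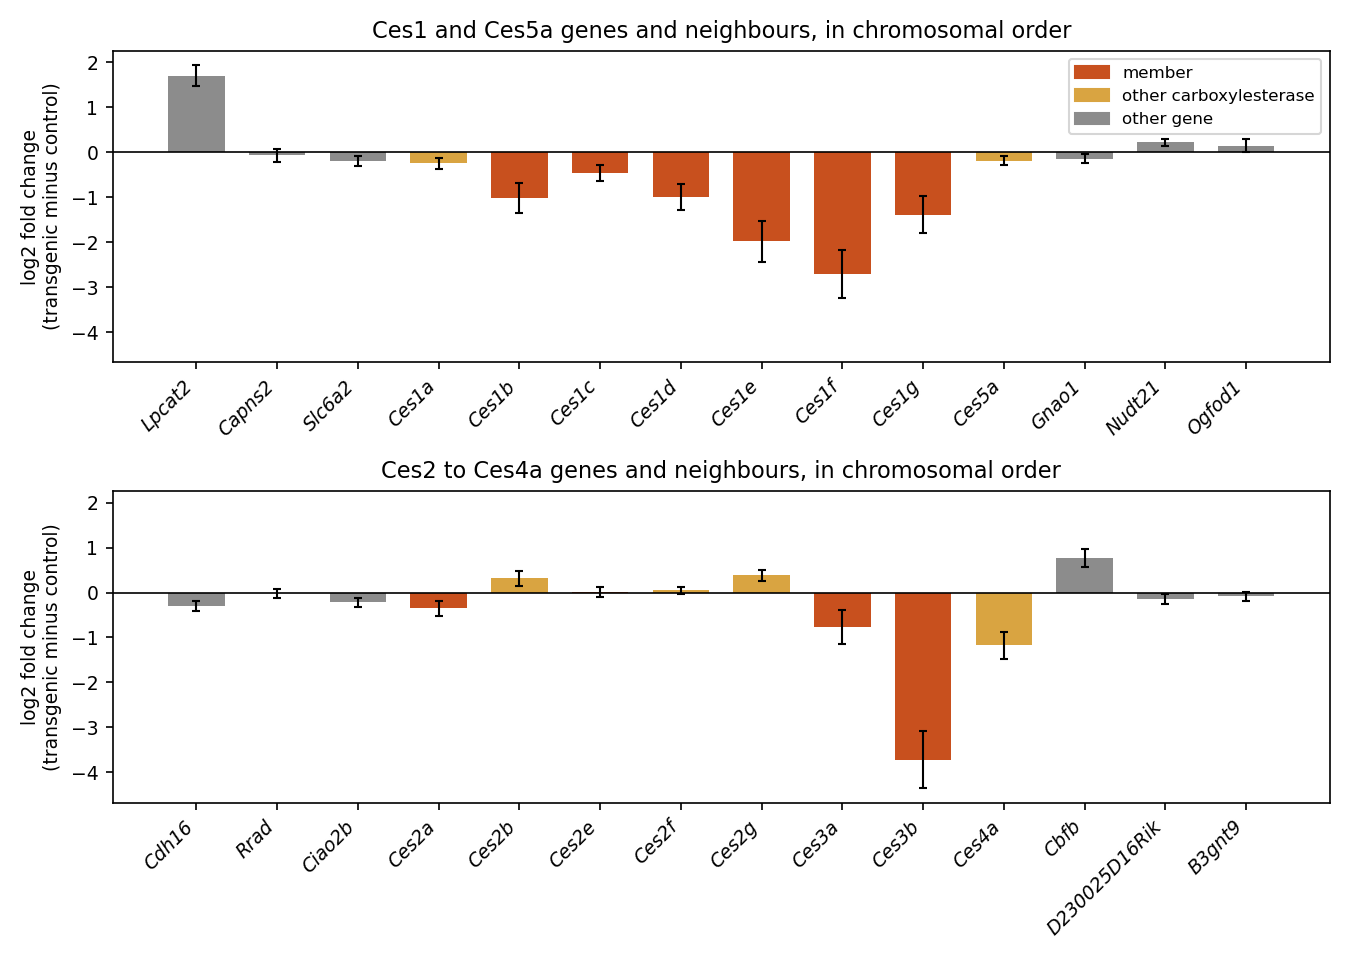
Log2 fold change with its SE for the carboxylesterase genes and the 3 nearest measured genes on each side of both clusters on chromosome 8, in chromosomal order. Ces1f at -2.70 and Ces3b at -3.72 are the lowest bars of their clusters.

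The family holds further genes outside the 10. Of 10 such paralogs 6 had a probe set, and by limma 1 was called lower (Ces4a) and 0 higher, with 1 in each direction at an unadjusted p under 0.05. Over all genes 1.67% were called lower and 4.67% higher, and 18.3% and 15.3% at an unadjusted p under 0.05. The median log2 fold change of these paralogs was -0.07, as it was over all genes tested. Since Ces1a, Ces2b, Ces2f and Ces5a read near the array medians, little can be read from this median. Ces4a, which follows Ces3b on the chromosome, read 4.497, 4.37, 5.31 and 5.67 in the transgenic livers and 6.14, 5.79, 5.96 and 6.65 in the controls. All transgenic livers were lower, and Ces4a fell by 1.18 on the log2 scale (SE 0.29; limma adjusted p = 0.0476, from 0.0151 to 0.133 over the alternatives tried). The call was lost without transgenic replicate 1 or 2, without each of the controls, with centred arrays and with all deposited probe sets tested. In transgenic replicates 1 and 2 the reading was below every array median, so the size of the fall is uncertain.

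Ces2g, a member of the Ces2 group, was on the other side of 0. It read 9.48, 9.01, 9.24 and 8.90 in the transgenic livers, against 8.74, 8.70, 8.85 and 8.81 in the controls. The groups did not overlap, and the log2 fold change was 0.38 (SE 0.12; limma adjusted p = 0.0813). Ces2g passed only without transgenic replicate 4 (adjusted p = 0.0400). Ces2b and Ces2f read near the array medians and stood at 0.32 (SE 0.17) and 0.05 (SE 0.08), and Ces5a was read by a further probe set with -0.21 (SE 0.11). Whether probes of 1 paralog also read another was not tested, since probe sequences were not used here.

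Other enzymes that split lipid and drug esters were compared with the family. Of 29 such genes measured, limma called 1 higher and 0 lower (beside 4.67% and 1.67% of all genes), with a median log2 fold change of -0.15. At an unadjusted p under 0.05, 3 were higher and 5 lower, beside 15.3% and 18.3% of all genes. The gene that rose was Lpl, lipoprotein lipase, which frees fatty acids from circulating lipoproteins. Lpl read 10.76, 10.91, 10.69 and 10.52 in the transgenic livers and 9.60, 9.85, 10.11 and 9.67 in the controls, a rise of 0.91 on the log2 scale (SE 0.13; limma adjusted p = 0.00759, called under every alternative tried). Pla2g15, a lysosomal phospholipase, stood next by p at 0.67 (SE 0.18; limma adjusted p = 0.0564). Below 0, the monoacylglycerol lipase Mgll, chosen after its value was seen, had the lowest fold change of the list at -1.40 (SE 0.38; limma adjusted p = 0.0564, from 0.0260 to 0.152 over the alternatives tried). Its transgenic readings of 6.56, 6.12, 7.94 and 7.88 were all under the controls at 8.62, 8.21, 8.58 and 8.69. Aadac, a hepatic arylacetamide deacetylase also picked after its value was seen, stood at -0.28 (SE 0.12).

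**Figure D5:**
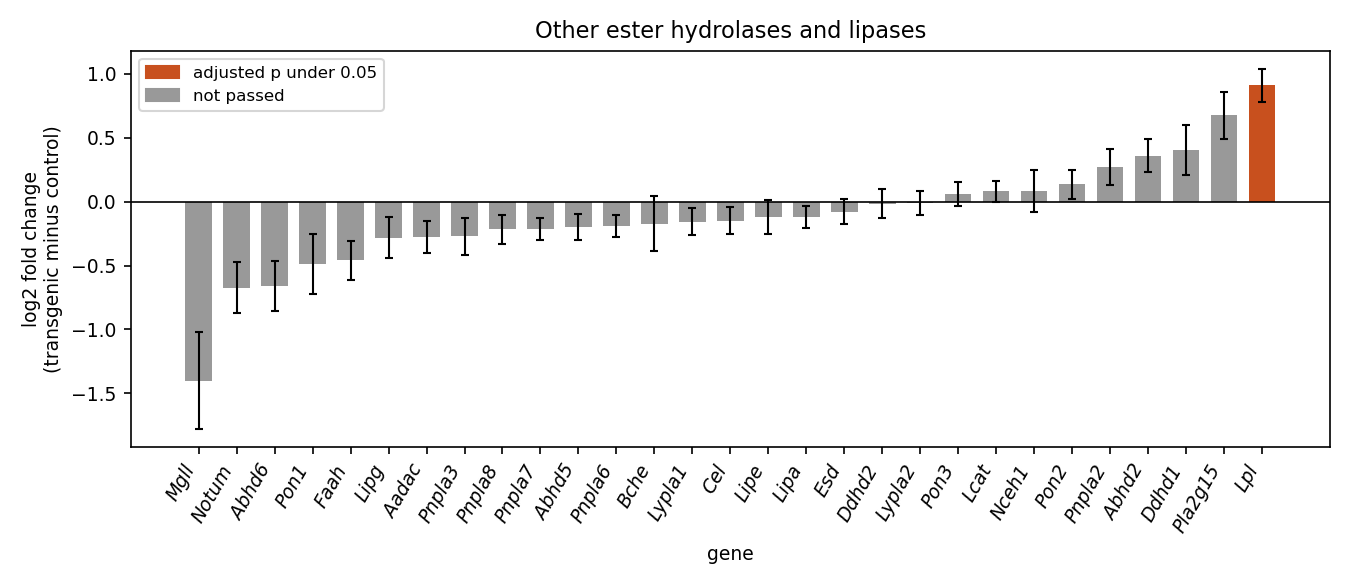
Log2 fold change with its SE of 29 other ester hydrolases and lipases, ordered by size. Lpl, at 0.91, is the only bar past an adjusted p of 0.05, and Mgll, at -1.40, is the lowest.

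Genes of lipoprotein assembly and of hepatic triglyceride, the process that Ces1d feeds, had 1 call, lower, in 12, beside 1.67% of all genes called lower and 4.67% higher. At an unadjusted p under 0.05, limma had 1 higher and 4 lower, beside 15.3% and 18.3% of all genes. Lower calls numbered 3 and higher calls 1 after quantile normalization, beside 638 and 1066 over all genes. Plin5, a coat protein of lipid droplets, fell by 0.55 on the log2 scale (SE 0.14; limma adjusted p = 0.0454, from 0.0367 to 0.123 over the alternatives tried). It read 6.97, 6.87, 7.07 and 7.04 in the transgenic livers, against 7.33, 7.96, 7.46 and 7.39 in the controls. The triglyceride-making enzyme Dgat2 stood at 0.40 (SE 0.11, limma adjusted p = 0.0608) and did not pass, though its groups did not overlap. Dgat2 was called higher after quantile normalization (limma adjusted p = 0.0474) and without transgenic replicate 4 (limma adjusted p = 0.0196). The list's median log2 fold change was -0.09.

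Nuclear receptors and other factors that control hepatic esterase and drug metabolism genes also gave 1 call, lower, in 14, with a median of -0.24. Over all genes 1.67% were called lower and 4.67% higher. At an unadjusted p under 0.05, limma had 1 higher and 4 lower, beside 15.3% and 18.3% of all genes. Lower calls numbered 2 after quantile normalization or without the dimmest 30% of probe sets and 3 without the dimmest 50%, with 1 higher call in each. Leaving out transgenic replicate 3 gave 3 lower and 1 higher, and leaving out replicate 4 gave 2 and 1. Nr0b2, the repressor SHP, fell by 0.91 on the log2 scale (SE 0.21; limma adjusted p = 0.0403, from 0.0222 to 0.112 over the alternatives tried). It read 7.05, 7.13, 6.44 and 7.32 in the transgenic livers and 8.30, 8.04, 7.70 and 7.54 in the controls. Nfe2l2, the oxidative stress factor Nrf2, stood at 0.95 (SE 0.25; limma adjusted p = 0.0538). The drug-sensing receptor CAR, Nr1i3, picked after its value was seen, stood at -1.13 (SE 0.32; limma adjusted p = 0.0624). Among the 4 measured partners in retinyl ester and glucuronidase biology, Gusb was the 1 call, and the retinol carrier Rbp4 stood at -0.23 (SE 0.10).

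The genes whose readings over the 8 arrays most resembled the mean of the members were Cyp2c23, Selenbp2, Ugt2b1, Csrp3 and Slc22a30. Likeness was measured as the root mean square difference between log2 readings after subtracting each gene's control mean, and it ran from 0.179 for Cyp2c23 to 0.208 for Slc22a30. Cyp2c23 is a cytochrome P450 that oxidises arachidonic acid. It read 10.14, 9.12, 10.12 and 10.86 in the transgenic livers, against 11.67, 11.10, 10.98 and 11.65 in the controls. Ugt2b1, a conjugating enzyme, read 10.03, 8.97, 10.51 and 10.97 in the transgenic livers and 11.69, 11.09, 11.22 and 11.71 in the controls. In all 5 genes transgenic replicate 2 was the lowest array, and their log2 fold changes lay between -1.31 and -1.19, features that choosing genes by their likeness to the members' mean brings with it.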

How the data were processed

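RNA of 8 livers was measured on Affymetrix arrays, 1 per liver. Per the labels' protocols, RNA came from frozen liver and was labelled as sense targets of whole transcripts. The submitters' processing notes name Affymetrix Expression Console as the tool behind the deposited log2 expression values. What the sources used here do not give is its version, normalization, background handling and genome build; base 2 was read from the values. Of 35556 probe sets, 21789 have 1 gene symbol, and these were fitted with limma 3.58.1 (R 4.3.3, tables read through data.table, version 1.17.8; group as the only term, empirical Bayes). Tests were two-sided, with Benjamini-Hochberg adjustment over the 21789 and a threshold of 0.05. A gene counts once, through its brightest probe set. Fold changes are transgenic minus control on the log2 scale, and a percent of control is 2 raised to that value. Promoters were aligned with Biopython 1.88.

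The members, the lists and the alternatives were chosen with earlier results of these data known. The text names all measured carboxylesterases, of each list of functions the called genes (at most 6) and the uncalled gene with the smallest p, the 5 genes most like the members and 3 neighbours on each side. Genes outside this rule are said to be chosen after their values were seen, and called markers of other cells are mostly given as counts. The steps were tested on simulated data. Counts of calls, the members' median and the log2 fold changes of named genes other than Lum, Dcn and Col1a1 were recomputed after quantile normalization, with centred array medians, without the 30% or 50% dimmest probe sets, over every deposited probe set, with a gene's probe sets averaged, with trend and robust moderation, with the replicate number as a block, and with each array left out in turn. For the marker, triglyceride, regulator and partner lists and for 10 genes outside the rule this was added after seeing the data. Likeness, promoters and differences between paralogs were computed once.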

Additional observations from a re-analysis of the deposited data

Results flagged for a closer look

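The reading of Ces1g in transgenic replicate 2, at 8.18, lay far below the other transgenic livers, the next of which read 9.81. The gap took up 0.894 of the group's range, more than Dixon's rule allows for 4 samples. Of 20 groups of readings examined this was the 1 that stood out, and about 1 in 20 does so by chance. Without this array the log2 fold change of Ces1g was -0.95.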

How the results depend on the processing

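The median log2 fold change of the members stayed negative, between -1.27 and -0.70, under all 16 alternatives. The 3 calls among the members became 2 with centred arrays, with all deposited probe sets and with the replicate number as a block, and 4 without the dimmest 50%; leaving out 1 array gave 0 to 5. The replicate block is shown although the labels state no pairing of the livers by number. Deviations of same-numbered livers correlated at 0.24, -0.03, 0.26 and -0.13 over the 21789 probe sets with 1 symbol. The control that correlated best was the same-numbered one for transgenic replicates 1 and 3, but not for 2 and 4. Whether the numbers pair the livers cannot be told from these values. Under the block Ces1e had a limma adjusted p of 0.0544, from 0.00947 to 0.113 over the alternatives. The 1 lower call among other paralogs became 0 with centred arrays, with all deposited probe sets and without the dimmest 50%, where Ces4a was not tested, and leaving out 1 array gave 0 to 1 lower and 0 to 1 higher. Among other ester hydrolases, 1 lower call appeared after quantile normalization, without the dimmest 30% or 50% and with the replicate block, and 2 were higher without the dimmest 30% or 50%; leaving out 1 array gave 0 to 3 lower and 1 to 2 higher. Genes called lower overall numbered 333, against 97 with centred arrays, 54 with all deposited probe sets and 174 with the block, and from 3 to 944 when 1 array was left out. With the block Gusb and Plin5 had adjusted p of 0.0576 and 0.0781 and were not called, while Mgll, at 0.0455, was. Mgll was also called after quantile normalization, without the dimmest 30% or 50% and without transgenic replicates 3 or 4. Causes were not tested. Using all deposited probe sets adds tests to adjust for and also refits the empirical Bayes step, and these were not separated. Signal over background was not measured, which limits readings near the array medians.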

Other observations

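The control livers differed among themselves in some carboxylesterases. Control replicates 1 and 4 both read above replicates 2 and 3 for 6 of the 10 members, an order found in 20.8% of all genes. For Ces3b the readings were 11.97 and 11.77 against 10.51 and 10.56. This order was picked with the readings in view, so the count is a description and carries no test. Array medians over all probe sets ordered the same arrays the other way, at 4.99 and 4.99 against 5.08 and 5.07.

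Abhd6 and Faah, hydrolases of monoacylglycerol and of fatty acid amides, were picked after their values were seen and did not pass the test. Abhd6 stood at -0.66 (SE 0.20; limma adjusted p = 0.0680, from 0.0332 to 0.170 over the alternatives tried), and it passed without transgenic replicates 3 or 4. It read 7.96, 8.03, 8.76 and 8.78 in transgenic and 8.89, 9.16, 8.95 and 9.18 in control livers, with no overlap. Faah stood at -0.46 (SE 0.15; limma adjusted p = 0.0854).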
